A study of Mus musculus with 6 samples.

Results

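The liver genes for organic anion and organic cation transporters described here are 9 of the 55536 genes in the deposited expression table, and were chosen by name. They are Slc10a1, Slco1a1, Slco1a4, Slco1b2, Slco2a1, Slco2b1, Slc22a7, Slc47a1 and Slc51b, and each name matched a single row. Liver RNA was sequenced from 6 samples of C57BL/6 mice aged 8 to 10 weeks, all of which carried floxed VMP1 alleles. In the 3 control samples, labelled WT, the mice had received the virus AAV8-TBG-null, and in the 3 samples labelled H-VMP1 KO they had received AAV8-TBG-cre, both for 2 weeks. The controls are therefore floxed, virus-treated animals, and the TBG promoter drives Cre in hepatocytes, so other liver cells keep the intact gene. The sex of the mice is not given in the sources used here, and whether each library came from its own animal is not stated either. The p-values below then reflect only the spread between libraries, which may be technical.

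Hepatocytes take up bile acids, bilirubin, steroid and thyroid hormone conjugates and many drugs from sinusoidal blood through solute carriers in the basolateral membrane, and pass them on to metabolism or to bile. SLC10A1 (NTCP) carries conjugated bile acids with sodium, and the organic anion transporting polypeptides encoded by the Slco genes carry a wide range of bile acids and other organic anions without it. SLC22A7 (OAT2) exchanges organic anions, SLC47A1 (MATE1) exports organic cations in exchange for protons, and SLC51B is the beta subunit of the bile acid exporter OST, which works as a pair with SLC51A. In cholestasis the uptake genes are known to be lowered and the basolateral exporters raised.

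Values are in TPM, a length-corrected transcript abundance that sums to the same total in each library. The number of reads is not kept in this unit, so the depth behind each value is unknown. Means carry their SD over the 3 libraries of a group (n = 3). A log2 fold change is the difference of mean log2(TPM + 1) ± SE, labelled knockout minus control, which understates the change of genes near 1 TPM. A gene was called at a Benjamini-Hochberg adjusted p under 0.05 from limma, fitted over the 12796 genes that reached 1 TPM in 3 or more libraries.

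The targeted gene was not called lower under any scaling shown here. Vmp1 measured 70.7, 96.5 and 88.6 TPM in the controls but 157, 136 and 137 TPM in the libraries labelled knockout, which therefore keep that wording throughout, and all directions given here depend on the labels. The log2 fold change of Vmp1 was 0.75 (adjusted p = 3.8e-04) as deposited, close to the median of all genes. It was not called with median-of-ratios scaling (-0.18, adjusted p = 0.20) or quantile normalization (0.23, adjusted p = 0.072). A gene-level value includes exons left after Cre and so does not check the deletion. Most genes differed between the groups: 85.2% of those tested were called, 74.5% higher and 10.7% lower, with a median log2 fold change of 0.77. Scaling by median of ratios, which centres the middle gene on no change, shifted log2 fold changes down by 0.83 (median), and then 71.8% were called, 35.1% higher and 36.6% lower. Marker genes moved with the groups. Of the hepatocyte markers 16 of 20 fell and 1 rose (median -1.27), and their summed level was 100991 to 128575 TPM in controls and 55423 to 58893 TPM in the labelled knockout. All 18 macrophage, all 18 endothelial and all 14 stellate or fibroblast markers tested rose, and after median-of-ratios scaling 18, 12 and 14 of them were still called higher. Of these, 5 macrophage and 3 stellate or fibroblast markers were under 1 TPM in every control, so they passed the filter only where they are high. In bulk tissue, fewer cells of a type and less RNA per cell cannot be told apart, and the part of these shifts in the results below was not tested.

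Slco1b2, Slco1a4 and Slco1a1 lie close together on chromosome 6 of GRCm38 and took different courses, and Slc10a1 fell far on another chromosome, so the 250 bases before the RefSeq start of these 4 genes are shown first. Capitals mark AGGTCA, the core that many nuclear receptors bind, TTCNNNGAA, the palindrome bound by STAT factors, and GTTAAT, part of the site of HNF1, on either strand. Build GRCm38.p6, 5′ to 3′ on the gene's own strand.
Slco1a1, chr6:141946963-141947212, minus strand: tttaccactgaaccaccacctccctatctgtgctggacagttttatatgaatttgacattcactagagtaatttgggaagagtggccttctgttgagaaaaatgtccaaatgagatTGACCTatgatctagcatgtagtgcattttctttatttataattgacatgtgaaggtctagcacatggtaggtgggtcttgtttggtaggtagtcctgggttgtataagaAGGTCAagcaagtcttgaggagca
Slco1a4, chr6:141856221-141856470, minus strand: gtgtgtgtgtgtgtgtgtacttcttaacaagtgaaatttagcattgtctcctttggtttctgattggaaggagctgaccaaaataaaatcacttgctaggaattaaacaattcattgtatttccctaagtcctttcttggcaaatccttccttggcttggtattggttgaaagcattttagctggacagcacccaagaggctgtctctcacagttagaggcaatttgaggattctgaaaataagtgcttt
Slco1b2, chr6:141629268-141629517, plus strand: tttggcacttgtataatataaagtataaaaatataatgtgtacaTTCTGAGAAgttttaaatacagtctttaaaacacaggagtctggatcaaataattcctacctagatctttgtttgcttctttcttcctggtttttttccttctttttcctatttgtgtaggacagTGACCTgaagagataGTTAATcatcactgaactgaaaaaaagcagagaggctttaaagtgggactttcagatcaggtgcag
Slc10a1, chr12:80968706-80968955, minus strand: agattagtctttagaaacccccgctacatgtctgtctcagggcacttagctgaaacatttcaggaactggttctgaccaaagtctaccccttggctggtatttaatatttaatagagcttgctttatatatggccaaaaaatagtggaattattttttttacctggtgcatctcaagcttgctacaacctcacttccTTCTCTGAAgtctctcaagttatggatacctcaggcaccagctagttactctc
The Slco1a1 window holds 2 matches to AGGTCA, 134 bases before the start on the reverse strand and 24 bases before it on the forward strand. The Slco1b2 window holds AGGTCA (reverse strand, 81 bases before the start), the STAT palindrome (206 bases) and GTTAAT (66 bases), and the Slc10a1 window holds the STAT palindrome 53 bases before the start. None of the 3 motifs was found in the Slco1a4 window. Among the windows searched but not shown, that of Slc51b, which rose, holds 1 match to AGGTCA and 1 STAT palindrome. Those of Slco2b1, which fell, and Slco2a1, which rose, hold none of the 3 motifs. Among all 32851 RefSeq windows of this length, 14% hold AGGTCA, 7.02% the STAT palindrome and 6.43% GTTAAT, so a match is common and describes the letters only. The antioxidant response core TGACNNNGC, held by 10.2% of windows, was in none of the 7 members' windows searched. No marked motif overlaps another. Slc22a7 and Slc47a1 had no window in the table.

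Of the 9 genes 6 fell, 2 rose and Slco1a4 was not called. All 9 passed the filter on low values, but Slc51b stayed under 1 TPM in each control and Slco1a1 and Slc22a7 in each labelled knockout library, so these 3 passed through their high group alone. Against the 10.7% of tested genes called lower, 6 of 9 fell, by 2.73 to 6.33 on the log2 scale, and 1.87% of tested genes were called with a fall of 2 or more on that scale. The groups did not overlap for 8 of the 9, where 86.8% of tested genes had groups apart. The 2 that rose compare with 74.5% called higher over all genes. With median-of-ratios scaling 7 of the 9 were called, 1 higher and 6 lower, against 71.8%, 35.1% and 36.6% of all tested genes. Since this scaling lowers fold changes, the lower calls could hardly end under it.

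**Figure D1:**
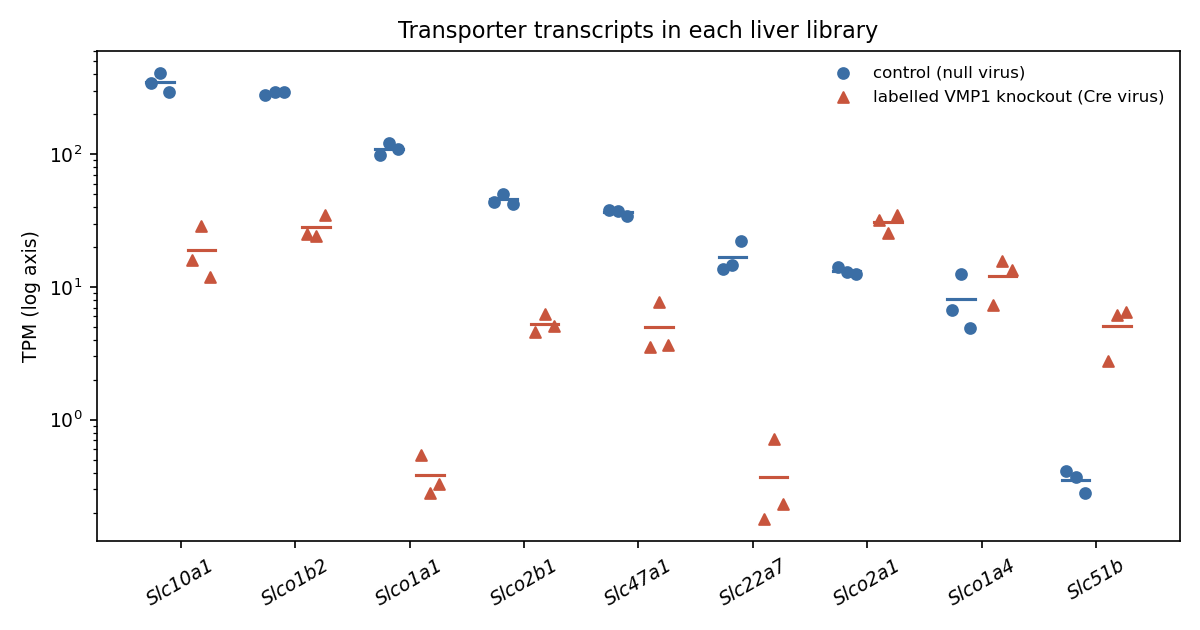
TPM of the 9 transporter genes (log axis) in each of the 3 control libraries (circles) and 3 labelled knockout libraries (triangles), ordered by control mean, with horizontal lines at the group means. The 6 genes on the left lie lower in every labelled knockout library, Slco2a1 and Slc51b lie higher, and the groups overlap only for Slco1a4.

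Slc10a1 (ENSMUSG00000021135, GRCm38 chromosome 12, 80953183 to 80968705, minus strand, protein-coding) encodes the main sodium-dependent carrier of conjugated bile acids. Control libraries had 347, 409 and 296 TPM, against 16, 28.8 and 11.9 TPM in the labelled knockout. The lowest control stood 10.3-fold above the highest labelled knockout library. The mean fell from 351 ± 56.7 to 18.9 ± 8.78 TPM, which left 5.39% of the control level, and the log2 fold change was -4.22 ± 0.32 (adjusted p = 2.8e-05). Slc10a1 had the highest control level of the 9 and ranked 42nd by fall among all tested genes. The labelled knockout libraries spread more than the controls, with a highest to lowest ratio of 2.41 against 1.38.

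Slco1b2 (ENSMUSG00000030236, chromosome 6, 141629518 to 141686646, plus strand, protein-coding) encodes OATP1B2, the rodent counterpart of the human liver uptake carriers OATP1B1 and OATP1B3. Its controls were close together at 282, 296 and 292 TPM, a coefficient of variation of 2.61%. The labelled knockout had 25.1, 24.3 and 34.9 TPM, 8.08-fold below the controls at the closest. The mean fell from 290.1 ± 7.58 to 28.1 ± 5.87 TPM, and the log2 fold change was -3.34 ± 0.14 (adjusted p = 5.6e-08). In the controls its range met that of Slc10a1, although Slc10a1 was the higher of the pair within each control library, and no other member came near them.

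Slco1a1 (ENSMUSG00000041698, chromosome 6, 141907282 to 141946962, minus strand, protein-coding) encodes OATP1A1, a carrier of steroid sulfates and other organic anions that is known to be more abundant in male than in female mouse liver. Control libraries had 99.2, 121 and 110 TPM, against 0.54, 0.28 and 0.33 TPM in the labelled knockout. No other member fell this far: the mean went from 110.1 ± 11 to 0.383 ± 0.138 TPM, a 287-fold ratio of means. On the log2(TPM + 1) scale the change was -6.33 ± 0.12 (adjusted p = 1.4e-09), rank 16 by fall among all tested genes. A pseudocount of 0.1 gave -7.86, since the labelled knockout values lie under 1 TPM. The lowest control was still 184-fold above the highest labelled knockout library.

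Slco1a4 (ENSMUSG00000030237, chromosome 6, 141805440 to 141856199, minus strand, protein-coding), a neighbour in the same gene cluster, encodes OATP1A4, a related carrier known to be more abundant in female mouse liver and to respond to the xenobiotic receptor PXR. Control libraries had 6.66, 12.6 and 4.93 TPM, against 7.27, 15.8 and 13.4 TPM in the labelled knockout. The groups overlapped, because control 2 lay above labelled knockout 1. The log2 fold change was 0.56 ± 0.40 (adjusted p = 0.23), and scaling by median of ratios turned it to -0.28 (adjusted p = 0.52). Without control replicate 2 it was 0.90 with adjusted p = 0.039, so this library decides the call. Slco1a4 had the widest control spread of the 9, with a coefficient of variation of 49.7%.

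The ratio of the 2 neighbours does not depend on how libraries are scaled. In the controls Slco1a1 was 14.9, 9.65 and 22.3 times as high as Slco1a4, and in the labelled knockout Slco1a4 was 13.5, 56.3 and 40.6 times as high as Slco1a1. The log2 ratio of Slco1a4 to Slco1a1 was -3.90, -3.27 and -4.48 among controls against 3.75, 5.81 and 5.34 among labelled knockout libraries, so the order of the neighbours was opposite in every library of the 2 groups. Of the 50-base words in the longest coding transcript, 2.26% for Slco1a1 and 2.73% for Slco1a4 occur in transcripts of other genes. Those genes include the neighbour itself, Slco1a5, Slco1a6, Gm5724 and Gm6614. Slco1a5, Slco1a6 and Slco1c1, from the same cluster, stayed at or below 0.16 TPM in every library. The levels of Gm5724 and Gm6614 were not examined. Of 12 other genes known to be more abundant in male mouse liver, 12 fell (median -3.42), against 10.7% of all genes called lower, although 3 of them, Hsd3b5 included, had less than 1 TPM throughout the labelled knockout group and passed through the controls alone. Examples are Hsd3b5, a steroid dehydrogenase, at 139 ± 16.8 and 0.223 ± 0.292 TPM and Serpina1e, a protease inhibitor, at 10685 ± 1356 and 95.3 ± 51 TPM. Of 14 genes more abundant in female liver, 5 were tested and 2 rose and 1 fell, against 74.5% and 10.7% of all tested genes. With median-of-ratios scaling 1 was higher and 3 were lower, against 35.1% and 36.6%. Among the female-abundant genes Cyp2a4 went from 1.37 ± 0.35 to 2332 ± 317 TPM. The prolactin receptor gene Prlr went from 35.1 ± 13.1 to 4.06 ± 2.02 TPM.

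Slco2b1 (ENSMUSG00000030737, chromosome 7, 99657804 to 99711340, minus strand, protein-coding) encodes OATP2B1, a broadly expressed carrier of steroid sulfates. Control libraries had 44, 50.5 and 42.5 TPM, against 4.61, 6.22 and 5.05 TPM in the labelled knockout. The groups lay 6.83-fold apart at their closest, and the spread within each was small, with coefficients of variation of 9.37% and 15.7%. The log2 fold change was -2.89 ± 0.12 (adjusted p = 6.5e-08).

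Slco2a1 (ENSMUSG00000032548, chromosome 9, 102988712 to 103096002, plus strand, protein-coding) encodes the prostaglandin transporter, which clears prostaglandins from the circulation and is known from vascular endothelium. Control libraries had 14.2, 13.1 and 12.5 TPM, against 31.9, 25.7 and 34.7 TPM in the labelled knockout, so it rose while 6 of the other 8 members fell. The mean was 2.32-fold higher (30.7 ± 4.62 against 13.3 ± 0.852 TPM), and the log2 fold change was 1.14 ± 0.12 (adjusted p = 1.6e-05). Scaling by median of ratios left 0.25 ± 0.10, which was not called (adjusted p = 0.066), and quantile normalization left 0.38 (adjusted p = 0.015). Endothelial markers moved with it: 18 of 18 rose, with a median of 1.24, where 74.5% of all genes were called higher with a median of 0.77. After median-of-ratios scaling 12 of the 18 were higher (median 0.49). Their summed level was 89.6 to 107 TPM in controls and 255 to 322 TPM in the labelled knockout. None of these markers was at 0 in all libraries. Their part in the rise of Slco2a1 was not tested.

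Slc22a7 (ENSMUSG00000067144, chromosome 17, 46432183 to 46438457, minus strand, protein-coding) encodes OAT2, which exchanges organic anions and cyclic nucleotides. Control libraries had 13.6, 14.7 and 22.4 TPM, against 0.18, 0.71 and 0.23 TPM in the labelled knockout, which left 2.21% of the control mean. The lowest control was 19.2-fold above the highest labelled knockout library. The log2 fold change was -3.69 ± 0.21 (adjusted p = 1.1e-06), and -5.30 with a pseudocount of 0.1. After Slco1a1 this was the smallest remaining share among the members.

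Slc47a1 (ENSMUSG00000010122, chromosome 11, 61343401 to 61378345, minus strand, protein-coding) encodes MATE1, which exports organic cations such as metformin across the canalicular membrane. Control libraries had 38.3, 37.7 and 34.3 TPM, against 3.54, 7.71 and 3.63 TPM in the labelled knockout. Labelled knockout replicate 2 stood apart from the other 2, yet the lowest control was 4.45-fold above it. The log2 fold change was -2.73 ± 0.25 (adjusted p = 2.8e-05). This was the smallest fall among the 6 genes that fell, and it left 13.5% of the control mean.

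Slc51b (ENSMUSG00000053862, chromosome 9, 65412714 to 65422955, minus strand, protein-coding) encodes the beta subunit of the OST exporter, a known target of the bile acid receptor FXR that is low in normal mouse liver and high in ileum. Control libraries had 0.41, 0.37 and 0.28 TPM, against 2.76, 6.1 and 6.46 TPM in the labelled knockout. Every labelled knockout library lay at least 6.73-fold above every control. The mean rose from 0.353 ± 0.0666 to 5.11 ± 2.04 TPM, and the log2 fold change was 2.11 ± 0.25 (adjusted p = 1.1e-04), and 1.60 ± 0.25 with median-of-ratios scaling. A pseudocount of 0.1 gave 3.44 and quantile normalization 1.27, both called. Its partner gene Slc51a (chromosome 16, 32474504 to 32487879), which encodes the alpha subunit, was listed at 0 in all 6 libraries. Cholangiocyte and ductular markers also rose, 7 of the 8 tested with 0 lower, a share near the 74.5% over all genes. After median-of-ratios scaling 7 were higher and 1 lower (median 1.24), against 35.1% and 36.6% of all tested genes. The summed level of these markers was 26.1 to 39.1 TPM in controls and 145 to 212 TPM in the labelled knockout. None of the 12 was at 0 throughout, 6 of the 8 passed the filter through the labelled knockout alone, and their part in the rise of Slc51b was not tested.

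**Figure D2:**
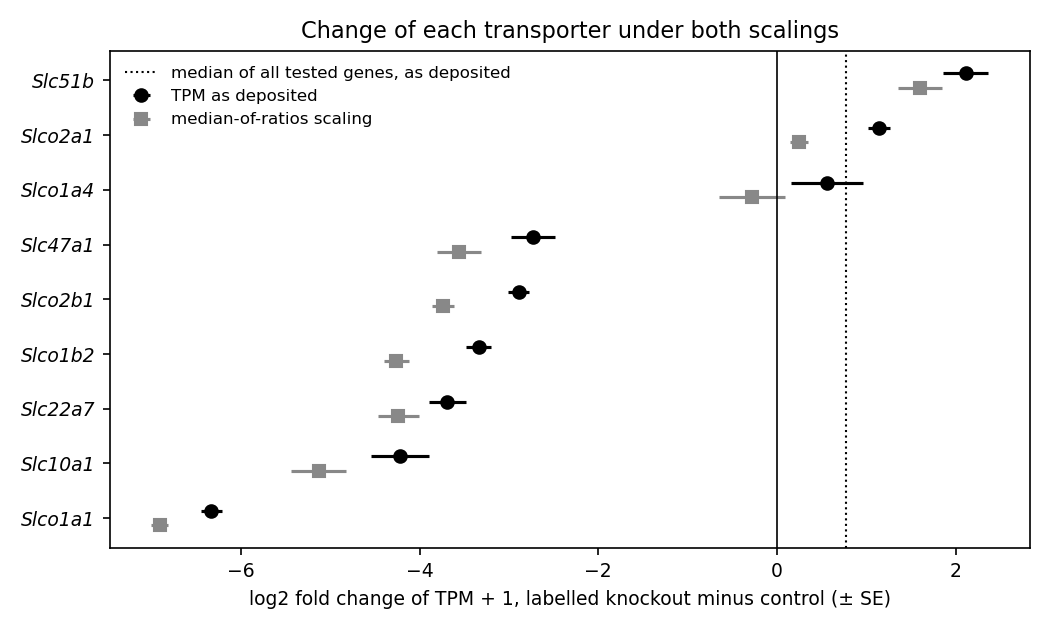
Log2 fold change (TPM + 1, labelled knockout minus control) of each transporter with its SE, as deposited (circles) and after median-of-ratios scaling (squares), with the median of all tested genes as deposited (dotted line, 0.77). The 6 genes that fell lie at -2.73 or below in both, Slc51b stays above 0, Slco2a1 moves from 1.14 to 0.25 and Slco1a4 changes sign.

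The order of the transporters was rearranged. In the controls Slc10a1 and Slco1b2 came first, then Slco1a1 (110.1 TPM), Slco2b1 (45.7), Slc47a1 (36.8), Slc22a7 (16.9), Slco2a1 (13.3), Slco1a4 (8.05) and Slc51b (0.353). The ranges of neighbours in this order overlapped for Slc10a1 and Slco1b2, for Slc22a7 and Slco2a1, and for Slco2a1 and Slco1a4. In the labelled knockout Slco2a1 came first (30.7 TPM), and its range met that of Slco1b2, whose range met that of Slc10a1, whose range met that of Slco1a4. Slco2b1, Slc51b and Slc47a1 followed with overlapping ranges around 5 TPM, and Slco1a1 and Slc22a7 were last, both under 1 TPM. These levels are per length and can be set beside each other within a library.

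Summed over the 9 genes, the controls held 845, 956 and 815 TPM, against 91.9, 116 and 111 TPM in the labelled knockout. The make-up of that sum also differed. Slc10a1 and Slco1b2 together held 73.5 ± 1.15% of it among controls, against 44.4 ± 1.85%. Slco1a1 went from 12.6 ± 0.871% to 0.376 ± 0.185%, while Slco2a1 went from 1.53 ± 0.157% to 29.4 ± 6.47% and Slco1a4 from 0.903 ± 0.369% to 11.2 ± 2.97%. Slco2b1 (5.23 ± 0.0445% and 4.99 ± 0.409%) and Slc47a1 (4.23 ± 0.298% and 4.6 ± 1.82%) kept about the same share, having fallen about as far as the sum. For bile acid carriers alone, control libraries had 846, 1106 and 1058 times as much Slc10a1 as Slc51b, and labelled knockout libraries 5.81, 4.72 and 1.85 times as much. These shares and ratios are descriptions with no test.

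**Figure D3:**
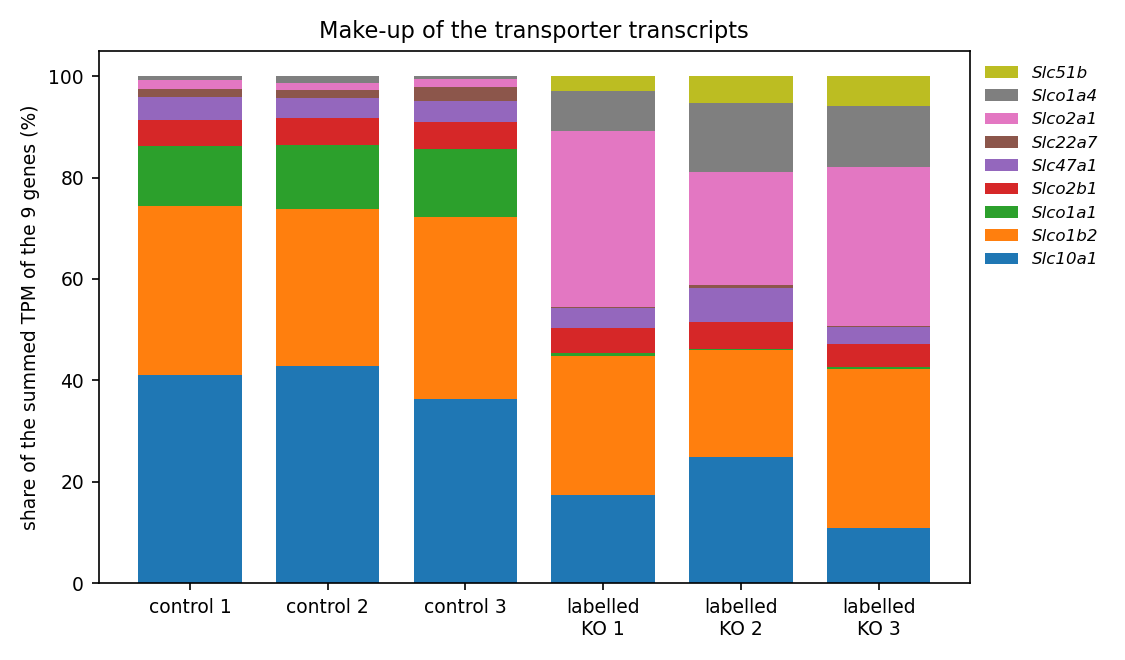
Stacked shares (percent) of the summed TPM of the 9 genes in each of the 6 libraries, 1 bar per library. Slc10a1 and Slco1b2 fill 72.2 to 74.4% of the control bars and 42.3 to 46% of the labelled knockout bars, where Slco2a1, Slco1a4 and Slc51b take larger shares.

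Within the labelled knockout group, replicate 2 often stood highest. Replicate 2 was the highest for 5 of the 9 genes, among them Slc10a1, Slc22a7 and Slc47a1, and replicate 3 for 3, Slco1b2, Slco2a1 and Slc51b. Replicate 2 was also the highest for 13 of the 20 hepatocyte markers and 13 of the 20 bile acid genes. Other cell type markers varied: 1 of 18 endothelial, 4 of 18 macrophage, 5 of 14 stellate or fibroblast and 5 of 8 ductular markers. For T, NK and B cell markers it was 3 of 4, and for neutrophil markers 4 of 4. The same count over all tested genes is not given here. The part of replicate 2 in the spread of the members was not tested, and without it the same 6 genes were called lower. Leaving it out can only deepen the falls of Slc10a1, Slco2b1, Slc22a7 and Slc47a1, where it was the highest, so these calls do not check that library. The ratio of Slc10a1 to Slco1b2 was 1.23, 1.38 and 1.01 among controls against 0.639, 1.18 and 0.343, so the groups overlapped in that ratio. Slc22a7 had the widest spread there, with a coefficient of variation of 78.4%, and Slco2a1 the narrowest at 15%.

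Levels of the 6 genes that fell were also set against albumin (Alb), the main secreted product of hepatocytes, within each library. Slc10a1 per 1000 TPM of Alb was at 12.2 ± 0.977 and 1.58 ± 0.504, Slco1b2 at 10.3 ± 2.03 and 2.48 ± 0.769, and Slco1a1 at 3.88 ± 0.629 and 0.034 ± 0.0148, controls first. Slco2b1 (1.6 ± 0.198 and 0.456 ± 0.0271), Slc47a1 (1.3 ± 0.235 and 0.415 ± 0.136) and Slc22a7 (0.616 ± 0.277 and 0.0304 ± 0.0194) were also lower per albumin, with groups apart. Alb itself fell from 29032 ± 6631 to 11605 ± 1651 TPM, which left 40% of the control level. Each of the 6 genes kept 13.5% or less, so lower means per albumin follow from these values. The comparison is free of the scaling between libraries but depends on the transcript chosen. Of the 20 hepatocyte markers none fell further than Slc10a1 or Slco1a1 on the log2(TPM + 1) scale, and 1 (Cyp2e1) fell further than Slc22a7. On that scale 3 (Cyp2e1, Pck1 and Uox) fell further than Slco1b2, and 4 (these and Serpina1c) further than Slco2b1 and Slc47a1. Some of these orders lie within the SE of the member. Cyp2e1 was at -4.05 against -4.22 ± 0.32 for Slc10a1, and Pck1 at -3.66 against -3.69 ± 0.21 for Slc22a7. Uox was at -3.42 against -3.34 ± 0.14 for Slco1b2. The fall of Slc22a7 is understated on the log2(TPM + 1) scale, since its labelled knockout values lie under 1 TPM. A pseudocount of 0.1 gave -5.30. Markers were not compared at that pseudocount.

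**Figure D4:**
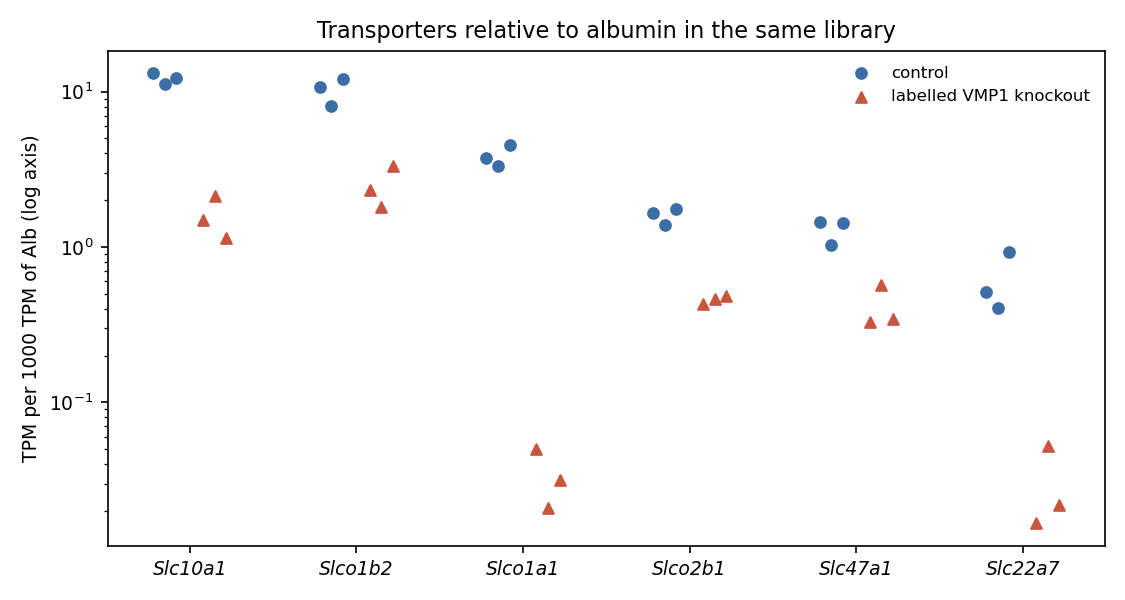
TPM of 6 transporter genes per 1000 TPM of Alb in the same library (log axis), for 3 control libraries (circles) and 3 labelled knockout libraries (triangles). The groups lie apart for Slc10a1, Slco1b2, Slco1a1, Slco2b1, Slc47a1 and Slc22a7.

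Of 33 other genes of the Slc10, Slco, Slc22, Slc47 and Slc51 families, 15 passed the filter on low values. Of these 9 rose and 6 fell (median 0.71), where 74.5% of all tested genes were called higher and 10.7% lower (median 0.77). But 3 of those that rose stayed below 1 TPM throughout the controls, and 1 that fell did so throughout the labelled knockout. They passed the filter through their high group alone, which fixes their direction. After scaling by median of ratios 4 of the 15 were higher and 7 lower, against 35.1% and 36.6% of all tested genes. Slc22a30, of the organic anion branch of the family, fell from 72.9 ± 11 to 3.15 ± 2.36 TPM, and its log2 fold change (-4.29 ± 0.40) was close to that of Slc10a1. Slc10a5, an orphan relative of NTCP, fell from 5.75 ± 0.37 to 1.01 ± 0.418 TPM. Slc10a3, another orphan relative, rose from 1.77 ± 0.375 to 12.4 ± 2.02 TPM, by 2.27 ± 0.14 on the log2 scale, and stayed called at 1.52 after scaling by median of ratios. Slc22a18 rose from 57.1 ± 3.68 to 118 ± 7.64 TPM, but scaling by median of ratios ended that call (0.10, adjusted p = 0.38). The remaining 3 named genes were less certain. Slc10a2, the ileal bile acid carrier ASBT, was at 2.99 ± 1.27 and 5.91 ± 1.72 TPM with overlapping groups, and its call (0.81, adjusted p = 0.019) did not survive leaving out control replicate 1 (adjusted p = 0.062) or 3 (0.064), or labelled knockout replicate 1 (0.058) or 3 (0.061). It was also lost with the replicate number as a block (adjusted p = 0.078). Median-of-ratios scaling left Slc10a2 at 0.06 (adjusted p = 0.83), and quantile normalization turned it to -0.03 (adjusted p = 0.92). Slc22a23 was higher by 0.44 as deposited and lower by median-of-ratios scaling (-0.45). Slc22a15 was lower by a log2 fold change of -0.29 (adjusted p = 0.040), a call lost without control replicate 1 (adjusted p = 0.15) or 2 (0.078), without labelled knockout replicate 1 (0.095) or 3 (0.12), with the block (0.052), and with no filter (0.080).

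The bile acid pathway around these carriers moved both ways. Of 20 genes for bile acid synthesis, conjugation and export, 4 rose and 13 fell (median -0.66), against 74.5% and 10.7% of all tested genes. After median-of-ratios scaling 3 were higher and 16 lower, against 35.1% and 36.6%. Of the 4 that rose, 2, Abcc4 included, were under 1 TPM in every control and passed the filter through the labelled knockout alone. Cyp8b1, the sterol 12alpha-hydroxylase that sets the share of cholic acid, fell from 181 ± 23.4 to 1.25 ± 0.653 TPM. Abcc4, a basolateral export pump for bile acids and other anions, rose from 0.353 ± 0.0814 to 48 ± 8.31 TPM. In every labelled knockout library (45.7, 41.1 and 57.2 TPM) Abcc4 was above each of the 9 members. Of 22 receptors, transcription factors and partners known to act on transporter genes, 21 were tested, of which 3 rose and 9 fell. Scaling by median of ratios, which shifted log2 fold changes over all genes down by 0.83 (median), gave 2 higher and 18 lower. Over all tested genes 74.5% were higher and 10.7% lower as deposited, and 35.1% and 36.6% after that scaling. Nr1i3, the xenobiotic receptor CAR, fell from 156 ± 31.7 to 16.2 ± 4.61 TPM, and Klb, the co-receptor for the enterohepatic bile acid hormone FGF15, from 6.53 ± 1.47 to 0.553 ± 0.414 TPM. Nr1h4, which encodes FXR and is named here after its values were seen, had control levels of 76, 87.3 and 72.9 TPM against 28, 29.2 and 22.7 TPM.

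Sensors of oxidants and xenobiotics are known to act on several transporter genes. Of their targets, the NRF2 genes rose and those of PXR and CAR moved both ways. Of 16 NRF2 target genes 16 rose (median 3.59), against 74.5% of all genes called higher, although 2 of them, Cbr3 included, were under 1 TPM in every control and passed through the labelled knockout alone. Examples are the glutathione transferase gene Gsta1 at 7.75 ± 2.81 and 2024 ± 59.9 TPM and the carbonyl reductase gene Cbr3 at 0.33 ± 0.0656 and 299.7 ± 18.5 TPM. After scaling by median of ratios 15 were higher and 1 lower. Of 13 target genes of PXR and CAR, 10 were tested, 3 rose and 4 fell (median 0.01), against 74.5% and 10.7% of all tested genes. After median-of-ratios scaling 2 were higher and 5 lower, against 35.1% and 36.6%. Cyp2c29, a drug-metabolizing cytochrome, fell from 805 ± 126 to 45.5 ± 42.3 TPM, while the glutathione transferase gene Gstm2 rose from 83.3 ± 19.5 to 1341 ± 50.7 TPM.

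**Figure D5:**
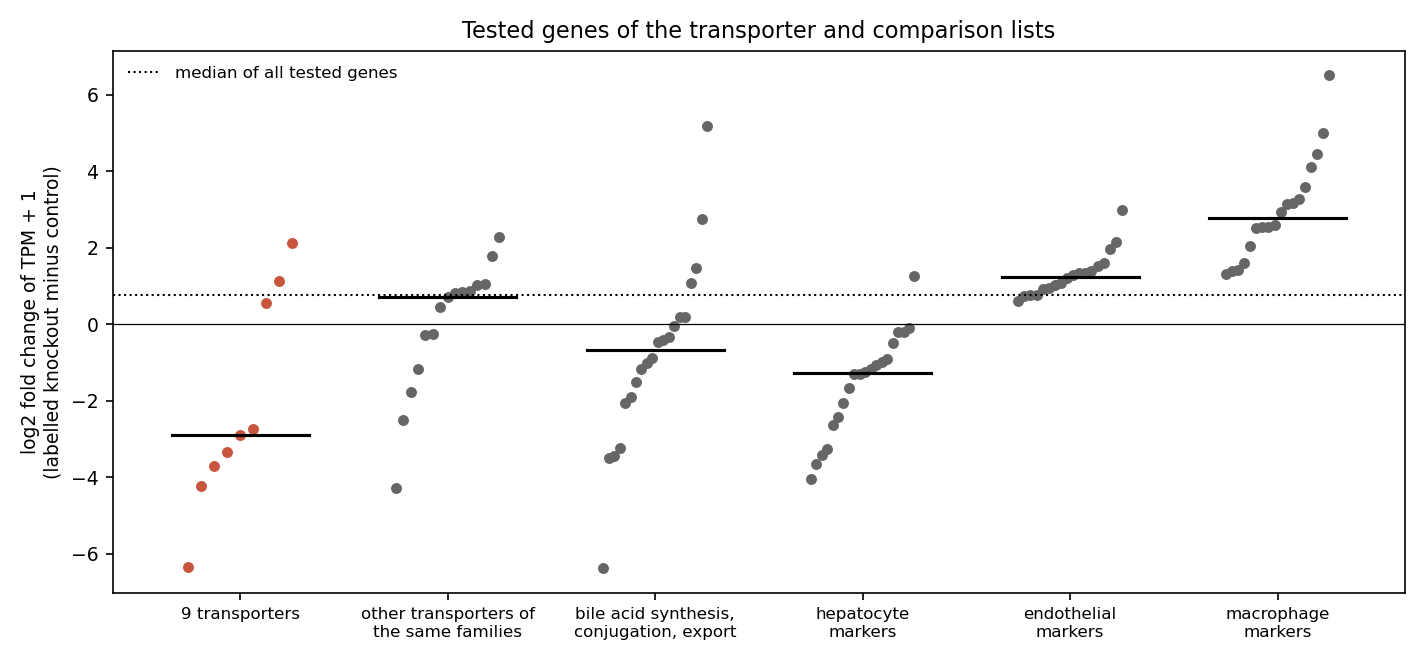
Log2 fold changes (TPM + 1, labelled knockout minus control) of the tested genes of 6 lists, 1 point per gene, with the list's median (bar) and the median of all tested genes (dotted line, 0.77). The 9 transporters have a median of -2.89, the hepatocyte markers -1.27, the endothelial markers 1.24 and the macrophage markers 2.76.

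Genes whose levels came closest to those of the members with the largest fall and the largest rise were found by the mean absolute difference of log2(TPM + 1) over the 6 libraries, as a description. For Slco1a1, with the largest fall, these were Hsd3b5 (0.274 log2 units), Cyp2c54 (0.296) and Gm13775 (0.347). For Slc51b, with the largest rise, they were Clec4a2 (0.147), Cd83 (0.192) and Ccnb2 (0.194). With so many genes tested, some lie close to any profile of 2 levels.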

How the data were processed

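Mouse liver RNA of 6 samples (3 controls, 3 labelled VMP1 knockout) was extracted with Trizol and made into Illumina libraries, per the labels' protocols. The authors deposited 1 table of TPM for the whole series. Per the submitters' processing notes, the tools were STAR 2.6.1c, RSEM and edgeR, on build mm10, without roles. RSEM shares ambiguous reads among similar genes, so the Slco1a genes carry some uncertainty. The strand setting is not given in the sources used here. All 6 columns matched sample titles, and 55450 of 55536 identifiers matched GENCODE M21 on GRCm38 (mm10), used for positions. Promoter windows are from RefSeq, build GRCm38.p6.

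Log2(TPM + 1) was fitted for genes that reached 1 TPM in 3 or more libraries, with limma 3.58.1 (R 4.3.3; trend, robust; no replicate block; Benjamini-Hochberg at 0.05), and the procedure was tested on simulated data. Ratios, shares, and levels per albumin (added after seeing the data) are descriptions. Motifs were likewise chosen late. The members and lists were chosen with earlier results of these data known. Named genes are the 9 members and Vmp1. To these were added up to 8 called transporters of the same families with a mean of at least 5 TPM in either group, Slc51a, up to 2 called genes per pathway list, and 3 nearest profiles for each of 2 members. One gene that this rule names is not reported here. Alternatives changed the pseudocount, filter, scaling, variance model, threshold and block, and left out each library. Figures used matplotlib 3.10.9.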

Additional observations from a re-analysis of the deposited data

How the results depend on the processing

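Over 25 alternatives, 18 planned and 7 added after seeing the data, 208 of 215 member values kept direction and call, and 7 members did so wherever tested. The exceptions were Slco2a1 and Slco1a4. The added alternatives repeat planned ones (leaving out 1 library, median-of-ratios scaling) with another choice of tested genes, so the 215 values are not separate checks. Slco1a4 changed sign with median-of-ratios scaling (-0.28, with or without the filter) and quantile normalization (-0.22). Slco2a1 lost its call with median-of-ratios scaling (0.25). Counts higher and lower over all genes were 4496 and 4689 with that scaling, 5870 and 5090 with that scaling and no filter, and 4520 and 4534 with quantile normalization. Members called higher numbered 1 with median-of-ratios scaling, with or without the filter, and 1 with a minimum of 5 TPM, where Slc51b was not tested. Other family transporters called higher numbered 15 with no filter, 4 with median-of-ratios scaling, 3 with quantile normalization and 3 of 7 called with a minimum of 5 TPM. Leaving out 1 library gave 6 to 7 members called, 1 to 3 higher and 4 to 6 lower, and 9 to 13 other transporters called, 5 to 9 higher and 3 to 5 lower. For the members the low ends come from the filter, since Slc51b, Slco1a1 and Slc22a7 drop out when a library of their high group is left out. With the same genes tested (added after seeing the data) 8 or 9 members were called. Of the 15 other transporters called in the main fit, 12 to 14 were then called. Some of those calls were therefore lost, among them Slc10a2 and Slc22a15. Same-numbered samples did not deviate together (correlations 0.08, 0.04 and -0.12 across genes), so the numbers are not taken to pair them. With the replicate block 8 members were called, 2 higher and 6 lower, as without it, and 12 other transporters. The depth is unknown, so levels under 1 TPM, including Slco1a1 and Slc22a7 in the labelled knockout, have no counting interval.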
